A study of Mus musculus with 15 samples.

Results

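The replication licensing genes described here were the 6 subunits of the MCM2-7 DNA helicase (Mcm2, Mcm3, Mcm4, Mcm5, Mcm6 and Mcm7) and Pcna, the sliding clamp of DNA polymerases. They were taken by symbol from the deposited table of TPM values, which scale each transcript's abundance to its length and to the library's total, and all 7 were among its 13834 genes. The study sequenced RNA of microglia, the resident macrophages of the brain, sorted by flow cytometry from mouse brain into 15 libraries. 4 libraries came from 18-month-old mice given PLX5622, an inhibitor of the receptor CSF1R on which microglia depend for survival. 5 came from highly autofluorescent microglia (AF-high) of untreated 18-month-old mice, 3 from weakly autofluorescent microglia (AF-low) of untreated 18-month-old mice, and 3 from untreated 3-month-old mice (young). The labels give no autofluorescence gate for the PLX5622 and young libraries, and state neither strain and sex nor the dose and schedule of PLX5622. The labels thus do not say whether the cells were taken on the drug or after its withdrawal. The libraries are named as biological replicates, but whether each came from 1 animal or a pool is not given, so a p-value here speaks only of how far these libraries spread.

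Licensing is the step by which a cell prepares its chromosomes for a single round of replication. In late mitosis and G1 the origin recognition complex, Cdc6 and Cdt1 load pairs of MCM2-7 rings onto DNA, and in S phase the rings are activated by Cdc45, the GINS complex and the kinases Cdc7 and Cdk2. Pcna is then loaded by replication factor C and tethers the polymerases, and it also serves in mismatch, base excision and nucleotide excision repair. In most cell types E2F transcription factors raise these genes as cells enter the cycle, so they are widely used as markers of proliferating cells. Adult microglia divide rarely, but after depletion by CSF1R inhibition and withdrawal of the inhibitor the survivors are known to refill the brain by division. The question put to the 7 genes was whether the PLX5622 libraries carried a sign of proliferation.

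The genes lie on 6 chromosomes of the mouse genome (GRCm38, GENCODE annotation), and each is protein coding. Mcm2 lies at chr6:88883474-88898780, Mcm3 at chr1:20802968-20820312, Mcm4 at chr16:15623897-15637400, Mcm6 at chr1:128331590-128359664, Mcm7 at chr5:138164583-138172422 and Pcna at chr2:132249162-132253314, all on the minus strand. Mcm5 lies at chr8:75109569-75128439 on the plus strand. RefSeq promoter windows (GRCm38.p6, from 250 bases before to 50 after the start) matched 6 of the 7, with none for Mcm4. They were searched on both strands for the E2F letters TTTCCCGC, TTTCGCGC, TTTGCCGC and TTTGGCGC, for CCAAT, the core of the NF-Y motif, and for TTTGAA, a core of the CHR element. The E2F letters were in the windows of Mcm3, Mcm5, Mcm6 and Mcm7, and in 2.87% of 20150 windows of protein-coding genes. Those in Mcm3 lay only after the start. Mcm7 has 2 windows, and the letters were in the one at chr5:138171834-138172133 and not in that at chr5:138171217-138171516. Both starts of Mcm7 lie inside its GENCODE span. The bases just after the start were found in a GENCODE transcript for Mcm2, Mcm3, Pcna and the Mcm7 window without the letters. They were not found for Mcm5, Mcm6 and the Mcm7 window with the letters, so every E2F match before a start lay in a window of this kind. For Mcm5 and Mcm6 the RefSeq start and the bases checked lay before the GENCODE gene span. Those bases thus could not be found in a transcript of the gene, and the check says nothing about these 2 windows. CCAAT was in the windows of all 6 and in 37.8% of coding windows. TTTGAA was in that of Mcm2 and in 15.2% of coding windows. The stretches below lie before both the RefSeq start and the GENCODE gene span and are read 5′ to 3′ along each gene's strand. They show in capitals an E2F match of Mcm5 and both of those of Mcm6 on that strand, and TTTGAA of Mcm2, whose window, like that of Pcna, held none of the E2F letters. In Mcm5 and in the farther stretch of Mcm6 a second E2F match on the opposite strand overlaps the one in capitals. A match describes the letters and is not a bound site.
Mcm5 (chr8:75109340-75109379, plus strand): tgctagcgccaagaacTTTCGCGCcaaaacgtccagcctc
Mcm6, farther from the start (chr1:128359792-128359831, minus strand): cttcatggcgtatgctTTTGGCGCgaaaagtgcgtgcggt
Mcm6, nearer the start (chr1:128359729-128359768, minus strand): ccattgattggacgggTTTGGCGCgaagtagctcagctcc
Mcm2 (chr6:88898829-88898866, minus strand): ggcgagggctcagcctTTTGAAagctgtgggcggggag

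None of the 7 genes passed the test (adjusted p under 0.05, limma on log2(TPM + 1) with Benjamini-Hochberg adjustment over 13175 genes) against AF-high, AF-low or young microglia. The Pcna level was high in every library of every group. Those of the helicase subunits lay between 1.07 and 75.3 TPM and overlapped between PLX5622 and AF-high libraries for every subunit. In bulk RNA, few cells with much of a transcript and many cells with little of it cannot be told apart.

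The deposited values are TPM, a level per transcript length, and the count of reads behind them is unknown, so no counting error can be given. The library totals over the listed genes were 956489 to 963145 TPM, and no value was 0. All 10 microglial markers examined were listed, with summed levels of 9208 to 9696 TPM in PLX5622, 9127 to 12257 TPM in AF-high, 7136 to 9773 TPM in AF-low and 10669 to 12084 TPM in young libraries. Libraries young 1 and young 2 held choroid plexus RNA, with 7770 and 5084 TPM of Ttr, the transthyretin gene, against 25.7 to 341 TPM in the other 13. AF-high 2, AF-high 3 and AF-low 1 stood apart in earlier work on these data, so the tests were repeated without those 3. In that repeat 0 of the 7 genes passed in any comparison (limma, adjusted p under 0.05). Of the 13175 genes tested, 286 passed there for PLX5622 against AF-high, 45 against AF-low and 30 against young. The count was 1 for AF-low against young and 0 for AF-high against young or AF-low. At such low shares 0 of 7 says little. A repeat without young 1 and young 2 left young 3 as the only young library, and sign changes under it are given below.

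Pcna, the clamp, was by far the most abundant of the 7. It measured 472, 520, 503 and 508 TPM in PLX5622 libraries, 489, 418, 491, 523 and 425 TPM in AF-high, 434, 634 and 491 TPM in AF-low, and 521, 554 and 597 TPM in young libraries. The PLX5622 values lay inside the AF-low range and under the lowest young value by a margin of about 1 TPM, and AF-low 2 was the highest of all 15. Averaged over the libraries, Pcna stood at percentile 97.9 of all genes in the table. Its highest library was 1.52 times its lowest, the narrowest range of the 7. The log2 difference was 0.10 ± 0.12 (SE; adjusted p = 0.745) between PLX5622 and AF-high. It was -0.04 ± 0.14 (adjusted p = 0.931) against AF-low and -0.15 ± 0.14 (adjusted p = 0.979) against young, where the median over all genes was also -0.11. As a ratio on the log2(TPM + 1) scale, the 95% interval ran from 0.898 to 1.28 for PLX5622 over AF-high, from 0.798 to 1.19 over AF-low and from 0.736 to 1.1 over young. GENCODE lists 2 processed pseudogenes of Pcna, neither of them a line of the table, and reads that match both gene and pseudogene leave the absolute level of Pcna uncertain.

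**Figure D1:**
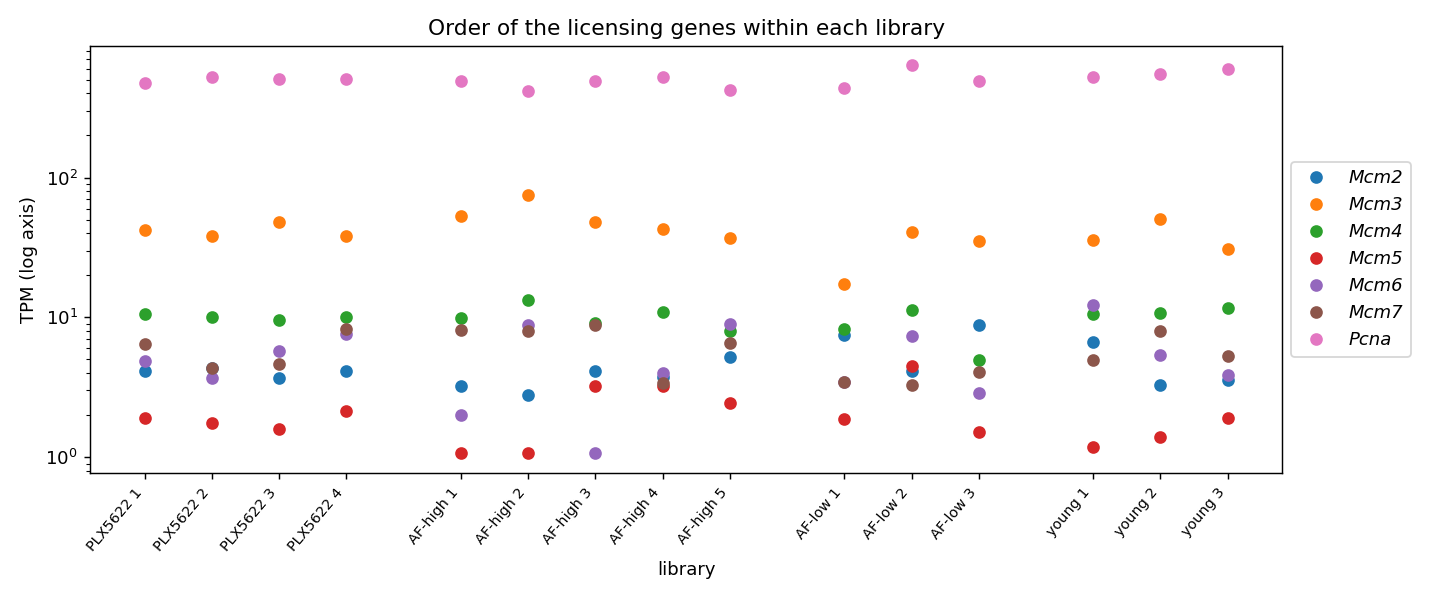
Level in TPM (log axis) of the 7 genes in each of the 15 libraries, in the order PLX5622, AF-high, AF-low and young, 1 point per gene and library. Pcna lies at 418 TPM or more and Mcm3 is the highest subunit in all 15 libraries, while the other 5 subunits change places between libraries.

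Mcm3, a subunit through which the ring is docked to the origin recognition complex in yeast, was the most abundant helicase transcript in all 15 libraries. It measured 42.4, 38.5, 48.4 and 38.3 TPM in PLX5622 libraries, 52.9, 75.3, 48.5, 42.7 and 37.2 TPM in AF-high, 17.4, 40.6 and 35.3 TPM in AF-low, and 35.6, 50.4 and 30.9 TPM in young libraries. AF-high 2 was the highest and AF-low 1 the lowest, both among the libraries that stood apart, and PLX5622 overlapped all other groups. The log2 difference was -0.25 ± 0.24 (adjusted p = 0.672) between PLX5622 and AF-high. It was 0.50 ± 0.28 (adjusted p = 0.434) against AF-low and 0.12 ± 0.28 (adjusted p = 0.982) against young.

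Mcm4 forms with Mcm6 and Mcm7 a subcomplex that unwinds DNA in vitro. It measured 10.6, 10.01, 9.51 and 10.1 TPM in PLX5622 libraries, 9.91, 13.4, 9.17, 10.9 and 7.95 TPM in AF-high, 8.30, 11.3 and 4.95 TPM in AF-low, and 10.5, 10.7 and 11.7 TPM in young libraries. The 4 PLX5622 libraries lay within the range of the AF-high ones, and AF-low 3 was the lowest of all. Mcm4 was the second most abundant subunit in 12 of the 15 libraries. Its log2 difference was -0.01 ± 0.20 (adjusted p = 0.988) between PLX5622 and AF-high, 0.33 ± 0.23 (adjusted p = 0.545) against AF-low and -0.12 ± 0.23 (adjusted p = 0.981) against young.

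Mcm6 was the most variable of the 7, with an 11.4-fold span over the 15 libraries. It measured 4.87, 3.65, 5.79 and 7.63 TPM in PLX5622 libraries, 2.02, 8.86, 1.07, 4.02 and 8.89 TPM in AF-high, 3.44, 7.38 and 2.89 TPM in AF-low, and 12.2, 5.42 and 3.85 TPM in young libraries. AF-high libraries alone held the lowest value of the series and the second highest. The highest was young 1, a library with choroid plexus RNA. The other such library, young 2, lay within the PLX5622 range, and a link was not tested. With this spread over the libraries, the comparisons of Mcm6 were the least precise of the 7. The ratio of PLX5622 to AF-high was 1.27 with a 95% interval of 0.650 to 2.48 (adjusted p = 0.771). It was 1.21 over AF-low (0.562 to 2.59, adjusted p = 0.853) and 0.850 over young (0.396 to 1.82, adjusted p = 0.982).

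Mcm7 measured 6.4, 4.31, 4.63 and 8.30 TPM in PLX5622 libraries, 8.09, 7.98, 8.78, 3.40 and 6.57 TPM in AF-high, 3.43, 3.29 and 4.08 TPM in AF-low, and 4.97, 7.97 and 5.30 TPM in young libraries. The AF-low libraries were close together and under every PLX5622 and young library, and of the AF-high libraries only AF-high 4 reached into their range. The log2 difference was -0.19 ± 0.25 (adjusted p = 0.776) between PLX5622 and AF-high, 0.55 ± 0.29 (adjusted p = 0.402) against AF-low and -0.05 ± 0.29 (adjusted p = 0.999) against young.

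Mcm2, whose tail binds histones H3 and H4, and Mcm5 form the gate through which DNA enters the ring. Mcm2 measured 4.16, 4.32, 3.66 and 4.11 TPM in PLX5622 libraries, 3.24, 2.77, 4.16, 3.77 and 5.25 TPM in AF-high, 7.51, 4.15 and 8.84 TPM in AF-low, and 6.63, 3.26 and 3.54 TPM in young libraries. AF-low 1, AF-low 3 and young 1 were high, and AF-low 2 lay among the PLX5622 values. The log2 difference was 0.09 ± 0.24 (adjusted p = 0.903) between PLX5622 and AF-high, -0.58 ± 0.27 (adjusted p = 0.342) against AF-low and -0.06 ± 0.27 (adjusted p = 0.995) against young.

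Mcm5 was the least abundant of the 7, at percentile 14.6 of the genes in the table. It measured 1.90, 1.74, 1.58 and 2.15 TPM in PLX5622 libraries, 1.08, 1.07, 3.21, 3.24 and 2.42 TPM in AF-high, 1.89, 4.50 and 1.52 TPM in AF-low, and 1.19, 1.39 and 1.90 TPM in young libraries. The PLX5622 values lay within the AF-high range, and AF-low 2, the highest, stood apart from the other AF-low libraries. At this level the added 1 TPM shrinks the log2 difference, which was -0.10 ± 0.28 (adjusted p = 0.900) between PLX5622 and AF-high, -0.27 ± 0.31 (adjusted p = 0.734) against AF-low and 0.20 ± 0.31 (adjusted p = 0.979) against young.

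**Figure D2:**
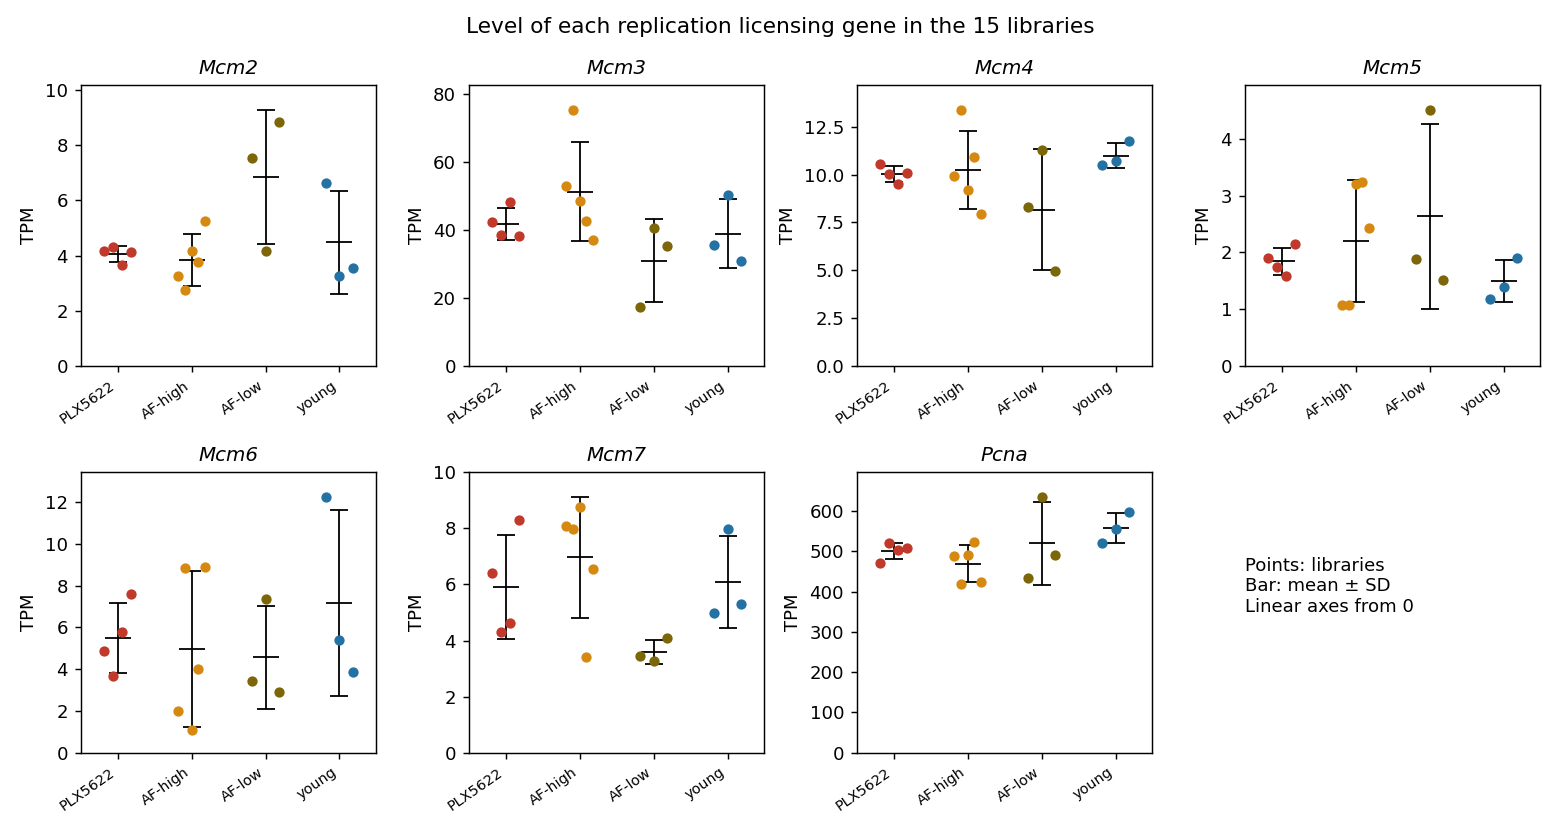
Level in TPM (linear axes from 0) of each of the 7 genes by group, with PLX5622 on the left, then AF-high, AF-low and young. Points are libraries and bars the mean ± SD. The 4 PLX5622 libraries lie close together for Mcm2, Mcm3, Mcm4, Mcm5 and Pcna, and Mcm6 spreads widely in AF-high and young libraries.

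The counts over the 7 genes are read against those over all genes tested. Between PLX5622 and AF-high, 0 of 7 passed the adjusted test, against 83 of 13175 genes (0.63%), and 0 of 7 had an unadjusted p under 0.05, against 15.3%. The groups overlapped for all 7, while 6.55% of all genes had groups that did not overlap. Between PLX5622 and AF-low, 0 of 7 passed, against 0.144% of all genes, and only Mcm2, lower in PLX5622, had an unadjusted p under 0.05, against 14.3%. The groups did not overlap for 1 of 7, Mcm7, against 16.2%. Between PLX5622 and young, 0 of 7 passed, against 0.0911%, and 0 of 7 had an unadjusted p under 0.05, against 5.23%. The groups did not overlap for 1 of 7, Pcna, against 16% of all genes. The median log2 difference of the 7 was -0.01 against AF-high, 0.27 against AF-low and -0.06 against young, beside -0.02, -0.05 and -0.11 over all genes. Each of the 3 comparisons uses the same 4 PLX5622 libraries.

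**Figure D3:**
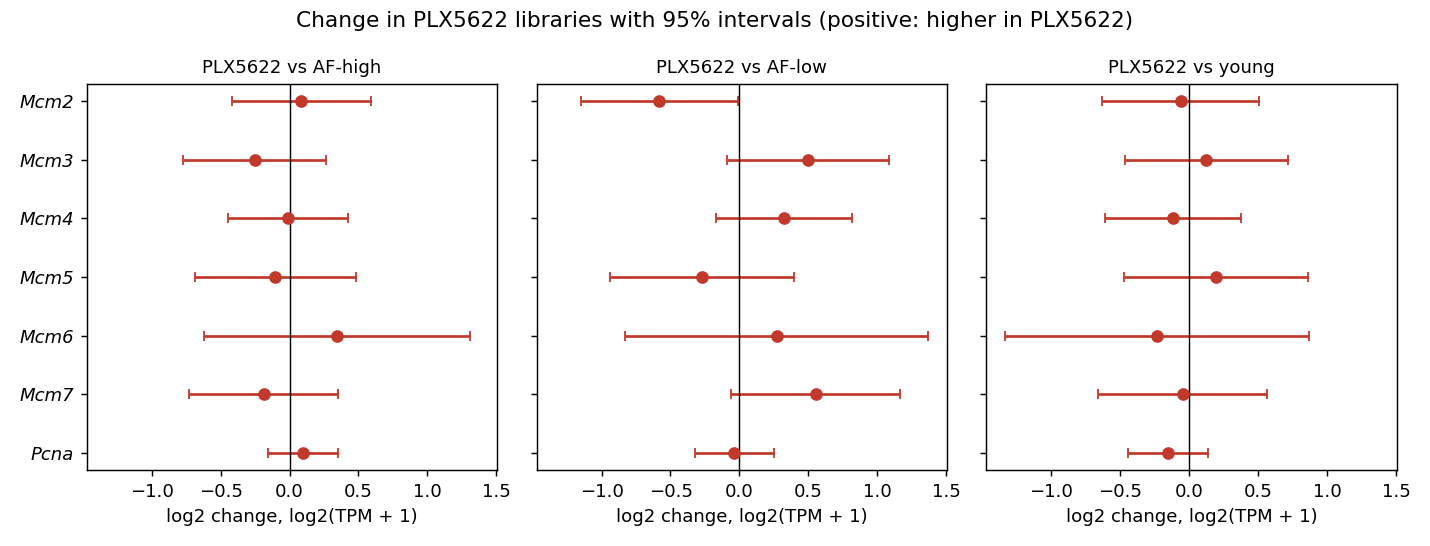
Log2 change with its 95% interval (limma, log2(TPM + 1)) of each gene in PLX5622 against AF-high, AF-low and young microglia, positive where PLX5622 was higher. All intervals cross 0 except that of Mcm2 against AF-low, and Pcna has the narrowest intervals, -0.15 to 0.35 against AF-high.

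The upper ends of the 95% intervals are ratios of TPM + 1, so for the lowest genes, Mcm5 above all, they allow a larger ratio of TPM. Against AF-high, the upper end was 1.28 for Pcna, 1.28 for Mcm7, 1.20 for Mcm3, 1.34 for Mcm4, 1.40 for Mcm5, 1.5 for Mcm2 and 2.48 for Mcm6. Against young, it was 1.1 for Pcna, 1.30 for Mcm4, 1.42 for Mcm2, 1.48 for Mcm7, 1.64 for Mcm3, and 1.82 for both Mcm5 and Mcm6. Against AF-low it ran from 0.994 for Mcm2 and 1.19 for Pcna to 2.12 for Mcm3, 2.25 for Mcm7 and 2.59 for Mcm6.

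The untreated groups gave the same count. Between AF-high and young, 0 of 7 passed, as did 0 of all genes (0%), and 0 of 7 had an unadjusted p under 0.05, against 11%. Between AF-low and young, 0 of 7 passed, against 0.0455% of all genes, and 0 of 7 had an unadjusted p under 0.05, against 11.8%. Between AF-high and AF-low, which share the age, 0 of 7 passed, as did 0 of all genes (0%), while 3 of 7 had an unadjusted p under 0.05, against 8.21%. These were Mcm3 (log2 difference 0.75 ± 0.26, adjusted p = 0.484) and Mcm7 (0.74 ± 0.28, adjusted p = 0.509), with higher values in AF-high, and Mcm2 (-0.67 ± 0.26, adjusted p = 0.516), with lower values in AF-high, all in limma's fit. The groups overlapped for each of the 3. Pcna averaged 469 ± 45.6 TPM in AF-high (SD, n = 5) and 520 ± 103 TPM in AF-low libraries (SD, n = 3), with a log2 difference of -0.13 ± 0.13 (adjusted p = 0.807). Against young libraries, which averaged 557 ± 37.7 TPM of Pcna (SD, n = 3), it differed by -0.25 ± 0.13 in AF-high (adjusted p = 0.509) and by -0.12 ± 0.14 in AF-low (adjusted p = 0.800). The largest differences of a subunit from young were -0.58 ± 0.49 for Mcm6 in AF-high (adjusted p = 0.709) and -0.60 ± 0.31 for Mcm7 in AF-low (adjusted p = 0.463).

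The 6 subunits assemble as 1 copy each, but their transcripts were not at equal levels in any library. Mcm3 made up 54.3% to 65.8% of their summed TPM in the PLX5622 libraries. Its share was 54.5% to 68.9% among AF-high, 41.4% to 61.3% among AF-low and 50.05% to 63.7% among young libraries. The summed level averaged 69.2 ± 4.71 TPM in PLX5622 (SD, n = 4), 79.6 ± 17.1 in AF-high (n = 5), 56.9 ± 14.6 in AF-low (n = 3) and 69.2 ± 11.1 in young libraries (n = 3). Without Mcm3, the other 5 summed to 24.04 to 32.2 TPM in PLX5622, 24.3 to 34.03 TPM in AF-high, 22.3 to 30.6 TPM in AF-low and 26.3 to 35.5 TPM in young libraries. The most abundant subunit stood 17.8 to 30.5 times above the least abundant within PLX5622 libraries, against 13.2 to 70.7 times in AF-high libraries, 9.2 to 23.3 times in AF-low libraries and 16.2 to 36.3 times in young ones. Pcna stood 6.71 to 8.32 times above the sum of the 6 subunits in PLX5622 libraries. The ratio was 3.83 to 7.68 for AF-high, 8.54 to 10.3 for AF-low and 7.001 to 10.4 for young ones. Below Mcm3 and Mcm4 the order was not fixed. Mcm6 was above Mcm7 in 7 of 15 libraries and above Mcm2 in 10 of 15. Mcm5 was the lowest in every library except AF-high 3, where Mcm6 was, and AF-low 2, where Mcm7 was.

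The SD of log2(TPM + 1) among the PLX5622 libraries was 0.08 for Mcm2, 0.15 for Mcm3, 0.06 for Mcm4, 0.12 for Mcm5, and 0.06 for Pcna. These lay under the 0.20 median of all genes in that group, and the SD was 0.37 for both Mcm6 and Mcm7. As many genes lie under a median as above it, so 5 of 7 is not read as a trait of these genes. The added 1 TPM also shrinks the SD of low genes such as Mcm5. Among AF-high libraries 4 of the 7 lay under that group's median of 0.39, and among AF-low libraries 2 of 7 lay under 0.34. Among young libraries Mcm4 and Pcna lay under the group's median of 0.17, while Mcm6 reached 0.75. A mean z-score over the 7 genes ran from -0.17 to 0.29 for PLX5622, from -0.24 to 0.20 for AF-high, from -0.70 to 0.58 for AF-low and from 0.04 to 0.26 for young libraries, so the extremes at both ends were AF-low libraries.

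The genes whose levels followed that mean most closely over the 15 libraries were Ppat, an enzyme of purine synthesis (Pearson r = 0.90, Spearman rho = 0.83), Mrgbp (0.89 and 0.77), the coagulation initiator F3 (0.88 and 0.75), Klhl42 (0.87 and 0.76) and Gemin5, an snRNP assembly factor (0.87 and 0.73), in that order of coefficients. Without AF-low 1 and AF-low 3, the 2 libraries farthest from the median score, r was 0.74, 0.71, 0.78, 0.67 and 0.71. AF-low 2, almost as far from it on the other side (0.58), was kept there. It was the highest library for Ppat, Mrgbp, F3 (68.8 TPM) and Gemin5, so these r values still lean on it. Those closest to Pcna alone were the histone gene H3f3b (r = 0.90, rho = 0.94), the nuclear factor Akirin2 (0.88 and 0.88) and the mitochondrial chaperonin Hspe1 (0.87 and 0.84), and without AF-high 2 and AF-low 2 their r was 0.82, 0.82 and 0.79. They are the highest of 13168 genes compared and are given as a description.

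The rest of the replication pathway was described from lists of genes. Over all genes tested, 0.63% passed for PLX5622 against AF-high, 0.144% against AF-low and 0.0911% against young. A count of 0 in a list therefore says little about that list. Where a gene below was named for its small p, a lack of overlap between groups follows largely from that choice. Groups did not overlap for 6.55% of all genes against AF-high and 16.2% against AF-low. Of the licensing partners, 11 of 13 were listed (not Cdc6 or Gmnn), and 0 of 11 passed in any comparison of PLX5622. That list also held the MCM relatives Mcm8 and Mcm9, neither of which is a subunit of the MCM2-7 helicase. Orc4, a subunit of the origin recognition complex, measured 41.2 to 49.1 TPM in PLX5622 and 67.6 to 93.5 TPM in AF-low libraries (log2 difference -0.87 ± 0.26, adjusted p = 0.156). Its PLX5622 values overlapped AF-high (43.1 to 98.9 TPM) and young libraries (46.9 to 59.4 TPM). Orc5 measured 15.02 to 17.7 TPM in PLX5622 and 9.25 to 16.8 TPM in AF-high libraries (0.40 ± 0.17, adjusted p = 0.283). Of the genes of helicase activation 0 of 14 passed. The GINS subunits Gins2 and Gins1 had the smallest p-values there, with differences of -0.89 ± 0.30 (adjusted p = 0.195) and -1.31 ± 0.46 (adjusted p = 0.214) between PLX5622 and AF-low. The median over the 14 genes was 0.02 against AF-high, -0.19 against AF-low and -0.08 against young.

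The fork and nucleotide genes gave 0 calls of 28 and 0 of 9 in the comparisons of PLX5622. The primase subunit Prim1 measured 2.05 to 3.03 TPM in PLX5622 and 0.312 to 1.71 TPM in AF-low libraries (0.82 ± 0.25, adjusted p = 0.162). Its PLX5622 values overlapped AF-high (1.81 to 2.71 TPM) and young libraries (2.09 to 3.60 TPM). Rpa1, a single-strand binding protein, differed by 1.05 ± 0.37 between PLX5622 and AF-low (adjusted p = 0.221). Dut, which keeps uracil out of DNA, measured 1.77 to 2.36 TPM in PLX5622, 0.0662 to 2.01 TPM in AF-high and 2.03 to 2.90 TPM in young libraries, with a difference of 1.03 ± 0.27 from AF-high (adjusted p = 0.0853). Dctd differed by 1.11 ± 0.39 between PLX5622 and AF-low (adjusted p = 0.205). In the S-phase chromatin list, 0 of 9 passed. Slbp, which binds histone mRNA, measured 135 to 176 TPM in PLX5622 and 81.6 to 132 TPM in AF-high libraries, which did not overlap (0.57 ± 0.15, adjusted p = 0.0808). The histone methyltransferase Ezh2 measured 18.4 to 27.7 TPM in PLX5622 and 6.67 to 14.8 TPM in AF-high libraries, also without overlap (0.90 ± 0.26, adjusted p = 0.107). Both genes were named for their small p, so the lack of overlap follows largely from that choice, and 6.55% of all genes shared it. Ezh2 in PLX5622 overlapped AF-low (11.2 to 20.7 TPM) and young libraries (12.8 to 25.1 TPM). Slbp overlapped young (119 to 154 TPM) and not AF-low libraries (125 to 133 TPM).

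Of 32 mitosis genes, 27 were listed (not Plk1, Kif20a, Cdc20, Ttk or Cdca3), and 0 of 27 passed against any group. Their summed level was 116 to 130 TPM in PLX5622, 136 to 211 TPM in AF-high, 131 to 201 TPM in AF-low and 114 to 126 TPM in young libraries, and their median log2 difference was -0.05 against AF-high, -0.01 against AF-low and -0.02 against young. Ckap2l, a spindle protein, measured 13.8 to 15.2 TPM in PLX5622 and 16.7 to 98.2 TPM in AF-high libraries (-1.42 ± 0.34, adjusted p = 0.0642). Its PLX5622 values overlapped AF-low (14.1 to 21.1 TPM) and young libraries (10.8 to 14.9 TPM). The centromeric histone Cenpa differed by -1.74 ± 0.56 between PLX5622 and AF-low (adjusted p = 0.176), and AF-low 1 held 54.7 TPM of it. The gaps in the summed level rest largely on such single genes. Ckap2l averaged 14.3 TPM in PLX5622 and 46.6 TPM in AF-high, and Cenpa 4.99 TPM in PLX5622 and 25.7 TPM in AF-low libraries. By sign, 12 of the 27 genes were higher and 15 lower in PLX5622 than in AF-high, and 13 higher and 14 lower than in AF-low. Mki67, the gene of the proliferation marker Ki-67, which was named for that use and not by the rule for named genes, measured 4.72, 5.31, 3.48 and 3.55 TPM in PLX5622 libraries, 2.88, 3.36, 5.88, 5.02 and 3.26 TPM in AF-high, 4.27, 3.08 and 3.15 TPM in AF-low, and 4.15, 4.89 and 4.25 TPM in young libraries. These values overlapped between all groups, and the log2 difference between PLX5622 and AF-high was 0.07 ± 0.21 (adjusted p = 0.908). Among 8 abundant genes often raised in dividing cells 0 passed. They summed to 1075 to 1176 TPM in PLX5622 and 1297 to 1395 TPM in young libraries. Sums were 1091 to 1565 TPM in AF-high and 1252 to 1334 TPM in AF-low libraries. In PLX5622 all 8 were lower than in young, with a median log2 difference of -0.20 (-0.11 over all genes). Against AF-high and AF-low, 6 were lower and 2 higher (medians -0.29 and -0.21). Unadjusted p was under 0.05 (limma) for 3 of 8 against young and 3 against AF-high, beside 5.23% and 15.3% of all genes. Hmgb2 measured 69.3 to 89.2 TPM in PLX5622 and 93.0 to 208 TPM in AF-high libraries (-0.84 ± 0.20, adjusted p = 0.0637). It measured 109 to 121 TPM in AF-low and 79.0 to 89.9 TPM in young libraries. The tubulin Tubb5 differed by -0.42 ± 0.13 between PLX5622 and AF-high (adjusted p = 0.135).

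In the list of G1/S control 1 of 23 genes passed, against AF-high, where 0.63% of all genes tested passed. It was the only call in the pathway lists and is not read as a result about G1/S control. The gene was Myc, a transcription factor that promotes cell growth and entry into the cycle, and it was lower in PLX5622. Myc measured 91.9, 94.7, 79.4 and 84.9 TPM in PLX5622 libraries and 111, 141, 136, 149 and 118 TPM in AF-high libraries. These did not overlap, as was so for 6.55% of all genes. The log2 difference was -0.57 ± 0.12 (adjusted p = 0.0495), so the call sat at the threshold, and under 19 of 27 alternative settings the adjusted p was above it, up to 0.204. Markers of border-associated macrophages, which live at the surface of the brain, were also lower, with a summed level over 6 of 6 markers of 62.9 to 90.9 TPM in PLX5622 against 136 to 251 TPM in AF-high libraries, and their part in the Myc difference was not tested. Their Mrc1 level was 6.33 to 10.97 TPM in PLX5622 and 21.4 to 25.8 TPM in AF-high libraries (-1.34 log2, adjusted p = 0.00603).

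Pcna also serves in repair, and none of 11 repair genes that work with it passed in a comparison of PLX5622. Msh3, a mismatch repair gene, differed by 0.65 ± 0.28 between PLX5622 and AF-high (adjusted p = 0.274). Of 15 p53 targets 0 passed. Cdkn1a, whose protein p21 binds Pcna and blocks replication, measured 408, 318, 393 and 443 TPM in PLX5622 libraries, 841, 444, 394, 775 and 850 TPM in AF-high, 1377, 443 and 953 TPM in AF-low, and 299, 327 and 254 TPM in young libraries, with a difference of -1.10 ± 0.34 from AF-low (adjusted p = 0.163). AF-low 2 lay within the PLX5622 range for Cdkn1a, while it was the highest of all libraries for Pcna and Mcm5. Plk2, a stress-induced kinase, differed by 0.84 ± 0.27 between PLX5622 and young (adjusted p = 0.565).

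**Figure D4:**
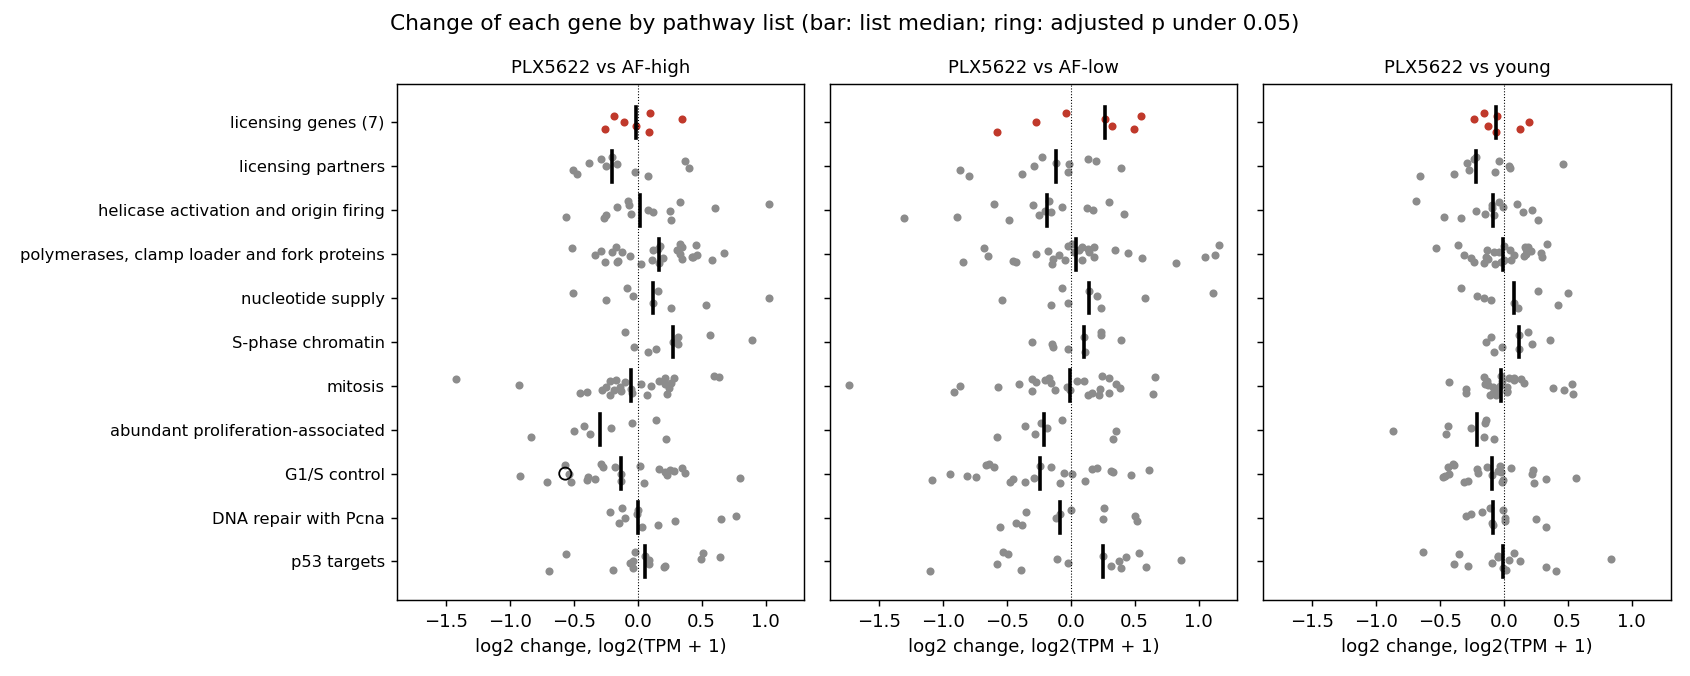
Log2 change (log2(TPM + 1)) of every tested gene in the 7 licensing genes and in 10 pathway lists, in PLX5622 against AF-high, AF-low and young microglia. Each point is a gene, the bar the list median, and the ring marks the single gene past the test, Myc against AF-high.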

How the data were processed

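RNA of sorted microglia was amplified with the Ovation kit before low-input library preparation, per the labels' protocols, which can add spread to low transcripts. The authors deposited 1 table of TPM per gene. The submitters' processing notes name FastQC 0.11.8, Salmon 1.0.0, DESeq2 and GRCm38, and no source used here states the filter behind the listed genes. Columns were matched to samples by name. Genes with at least 1 TPM in at least 3 libraries (13175) were tested on log2(TPM + 1) with limma 3.58.1 (R 4.3.3), with all 15 libraries in 1 fit by group, a variance trend, 6 two-sided contrasts and Benjamini-Hochberg adjustment over all genes at 0.05. The 7 members, all of which passed the filter on low values, and the lists were chosen with earlier results of these data known. Named from each pathway list were genes past the test in a PLX5622 comparison, or else the 2 of smallest p; 1 gene so named is not reported here. The steps were tested on simulated data. Alternatives were another pseudocount, filters, scalings, weights, variance model, a replicate block and libraries left out.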

Additional observations from a re-analysis of the deposited data

How the results depend on the processing

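None of the 7 genes passed in any of the 6 comparisons under 27 alternative settings, in which the lowest adjusted p of a member was 0.103. At a filter of 5 TPM, 6 of the 7 were tested. Of 1128 log2 differences of members under the alternatives, 1080 kept their sign and 48 changed it, none past the threshold before or after. The cause was not tested. PLX5622 against AF-high: median-ratio scaling gave Mcm4 0.0051, quantile normalization 0.0076, array weights 0.081, and leaving out AF-high 2, AF-high 3 and AF-low 1 gave 0.069. Array weights gave Mcm2 -0.019, and without those 3 libraries Mcm7 was 0.0044. Leaving out each library in turn gave Mcm4 -0.0898 to 0.081 and Mcm5 -0.24 to 0.016. PLX5622 against AF-low: Pcna was 0.026 with median-ratio scaling and 0.14 with quantile normalization. With each library left out Pcna ran from -0.16 to 0.12 and Mcm5 from -0.49 to 0.073. PLX5622 against young: median-ratio scaling gave Mcm2 0.026 and Mcm7 0.049, quantile normalization gave Mcm2 0.054, Mcm4 0.0054 and Mcm7 0.084, and array weights gave Mcm2 0.054. Without young 1 and young 2, Mcm2 was 0.16, Mcm5 -0.034, Mcm6 0.38 and Mcm7 0.095. With each library left out Mcm2 ran from -0.22 to 0.20, Mcm3 from -0.024 to 0.32, Mcm6 from -0.54 to 0.18 and Mcm7 from -0.20 to 0.13. AF-high against young: Mcm2 was 0.012 with quantile normalization, 0.073 with array weights and 0.070 without young 1 and young 2. Without those 2 Mcm6 was 0.038, without the 3 old libraries Mcm7 was -0.053, and with each library left out Mcm2 ran from -0.30 to 0.12. AF-low against young: Mcm6 was 0.11 without young 1 and young 2, Pcna 0.0043 without the 3 old libraries, and Pcna ran from -0.27 to 0.0043 with each library left out. AF-high against AF-low: array weights gave Mcm5 0.010 and Mcm6 0.26, and with each library left out Mcm5 ran from -0.39 to 0.18, Mcm6 from -0.32 to 0.26 and Pcna from -0.26 to 0.018.

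Same-numbered libraries of different groups did not deviate together (median correlation 0.017, 1 of 19 pairs over 0.1). Whether AF-high and AF-low libraries of one number share animals is not stated in the labels. The correlations cannot decide it, because only the pairs of AF-high with AF-low libraries (0.053, -0.029 and -0.081) could share a mouse. With the replicate number as a block, 0 members passed, Mcm7 in PLX5622 against young was 0.0087, and the counts over all genes were 0 against AF-high, 3 against AF-low and 3 against young for PLX5622, and 0 in the other comparisons.

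The counts over all genes depended on the setting, and at such low shares a count over 7 genes could hardly move. With each library left out they ran from 1 to 205 for PLX5622 against AF-high (83 in the fit reported), from 2 to 398 against AF-low (19; 398 without AF-low 2), from 1 to 53 against young (12), from 0 to 60 for AF-high against young (0), from 0 to 182 for AF-low against young (6) and from 0 to 1 for AF-high against AF-low (0). Array weights gave 441, 89, 420, 129, 44 and 0 in the same order, and a fit of only the groups compared gave 7, 0, 59, 0, 0 and 0. Read depth is unknown, so the part of counting error in low genes such as Mcm5 is unknown too.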

Other observations

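Mcmdc2, an MCM-domain gene known from mouse meiosis and no subunit of the helicase, was chosen after its values were seen. It measured 99.8, 92.8, 113 and 87.1 TPM in PLX5622 libraries, 84.3, 106, 98.7, 67.1 and 81.3 TPM in AF-high, 111, 87.7 and 81.6 TPM in AF-low, and 101, 100.1 and 95.9 TPM in young libraries. It was thus above every one of the 6 helicase subunits in each group's mean. Its log2 difference was 0.18 ± 0.14 between PLX5622 and AF-high (adjusted p = 0.593), 0.08 ± 0.16 against AF-low (adjusted p = 0.873) and -0.02 ± 0.16 against young (adjusted p = 0.999).

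Mcm9, a helicase of DNA repair that was likewise chosen after its values were seen, was the most uneven of the related genes, at 1.14, 18.9, 13.4 and 11.7 TPM in PLX5622 libraries, 1.06, 75.7, 4.38, 16.5 and 12.3 TPM in AF-high, 1.28, 17.3 and 14.1 TPM in AF-low, and 5.77, 12.4 and 13.7 TPM in young libraries. PLX5622 1, AF-high 1 and AF-low 1 were all near 1 TPM, and the library numbered 1 was the lowest in each of the 4 groups, although over all genes same-numbered libraries did not deviate together.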
